A study of Mus musculus with 8 samples.

Results

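The Sox genes encode transcription factors that bind DNA through an HMG box, and the 10 described here cover 4 of the family's groups. Sox1, Sox2 and Sox3 are the SoxB1 activators and Sox21 a SoxB2 repressor, Sox4 and Sox11 belong to SoxC, Sox5 to SoxD, and Sox8, Sox9 and Sox10 to SoxE. The members were chosen by name, and every probe set annotated to a single gene was taken where that gene was one of the 10. This gave 35 probe sets of the 34945 with a single gene on the array (45101 probe sets in all) and 10 of 18193 genes. The number of probe sets ran from 1 for Sox2 and Sox8 to 8 for Sox4.

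Sox proteins bind short related DNA motifs and act mostly together with partner factors, so that the same Sox protein serves different genes in different cells. SOX2 and the POU factor OCT4, the product of Pou5f1, jointly bind enhancers of pluripotent cells, and the SoxB1 proteins keep neural precursors from differentiating, which SOX21 opposes. The SoxC proteins activate neuronal genes as precursors differentiate and also act in mesenchyme, SOX5 lacks an activation domain of its own and works beside SOX9 in cartilage, and the SoxE proteins direct gliogenesis, the neural crest and, in the case of SOX9, cartilage.

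Messenger RNA of wild-type mouse cells had been measured with whole-genome oligonucleotide arrays in 3 cell types. Neural precursor cells (NPC, 3 arrays) had been made in culture from ES cells by way of embryoid bodies and selection in ITSFn medium, and were kept in FGF2 and what the labels call EGF2; the labels describe them as expressing nestin and Sox2 throughout, so Sox2 in NPC was known to the submitters. Mouse embryonic fibroblasts (MEF, 2 arrays) were grown in medium with fetal bovine serum. ES cells (3 arrays) were of the single line V6.5, grown with leukemia-inhibiting factor on irradiated MEF and then passaged on gelatin to remove these feeder cells. No treatment, deletion or transgene is given for any group, the strain and embryonic age of the MEF are not given, and the labels do not name the ES line from which the NPC were made.

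Expression values below are normalized log2(intensity + 16) unless stated otherwise, and the median of all probe sets on every array was 5.30. Summed intensities are linear. For them, the normalized value of each gene of a list was turned back to intensity and added up on each array, and the range over a group's arrays is given. A probe set below that median on every array of a group is called dim there. A gene was called higher or lower where limma's adjusted p, over all 18193 genes, was under 0.05 and the log2 difference was at least 1 in size, and folds are those of intensity + 16, which understates the change of dim genes. Whether replicate arrays stand for separate cultures is not stated in the labels. The p-values therefore cover array-to-array spread alone, which could be technical, and the number of arrays limits the precision. In such bulk samples fewer cells of a type and less RNA per cell cannot be told apart. Arrays of different groups correlated at 0.858 to 0.872 over all probe sets, no arrays were identical, and NPC 1 stood apart from NPC 2 and NPC 3 (0.967 and 0.969, against 0.987 between the other two). The cell labels were checked against defining genes. Pou5f1 averaged 4.65 in NPC, 4.47 in MEF and 12.01 in ES cells, Nes, which encodes nestin, 9.70, 8.67 and 5.71 in that order, and the collagen gene Col1a1 4.15, 13.00 and 6.15. Of the further marker lists, 8 of 8 ES genes were lower in both NPC and MEF than in ES cells, 6 of 7 neural precursor genes were higher in NPC, and all 8 fibroblast genes were higher in MEF than in ES cells. Set against ES cells, NPC were lower at 4 of 8 fibroblast genes (0 at a pseudocount of 64) and higher at 1, Twist1 (1.83), and they were lower at 2 of 6 mesendoderm genes. Of 7 macrophage markers measured, 5 were higher in MEF than in ES cells (3 at a pseudocount of 64) and 1, Cd68, was lower (-1.31). The count lower was 0 with arrays centred on their medians, and also without renormalization of the deposited values. The summed intensity of the 7 was 1036 to 1063 in MEF against 351 to 363 in ES cells.

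Set against ES cells, 7 of the 10 Sox genes were higher in NPC (Sox3, Sox21, Sox4, Sox11, Sox5, Sox8 and Sox9), where 10.0% of all genes were called higher. None was called lower, where 12.9% of all genes were. Sox1 and Sox2, the 2 members lower at an unadjusted limma p under 0.05 (28.8% of all genes were), also passed the adjusted threshold and missed only the minimum size. In MEF, 3 members were higher than in ES cells (Sox4, Sox11 and Sox9, against 12.2% of all genes) and 2 were lower (Sox1 and Sox2, against 12.8%). In the comparison of NPC with MEF, 7 members were higher in NPC than in MEF (Sox1, Sox2, Sox3, Sox11, Sox5, Sox8 and Sox9, against 7.95% of all genes) and none lower (10.5% of all genes, and with no member at an unadjusted limma p under 0.05, where 22.4% of all genes were). The median difference of the 10 members was 2.76 log2 units for NPC minus ES, 0.44 for MEF minus ES and 2.15 for NPC minus MEF, beside -0.05, -0.04 and 0.01 over all genes. The comparisons share arrays, so these counts are not independent of each other.

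**Figure D1:**
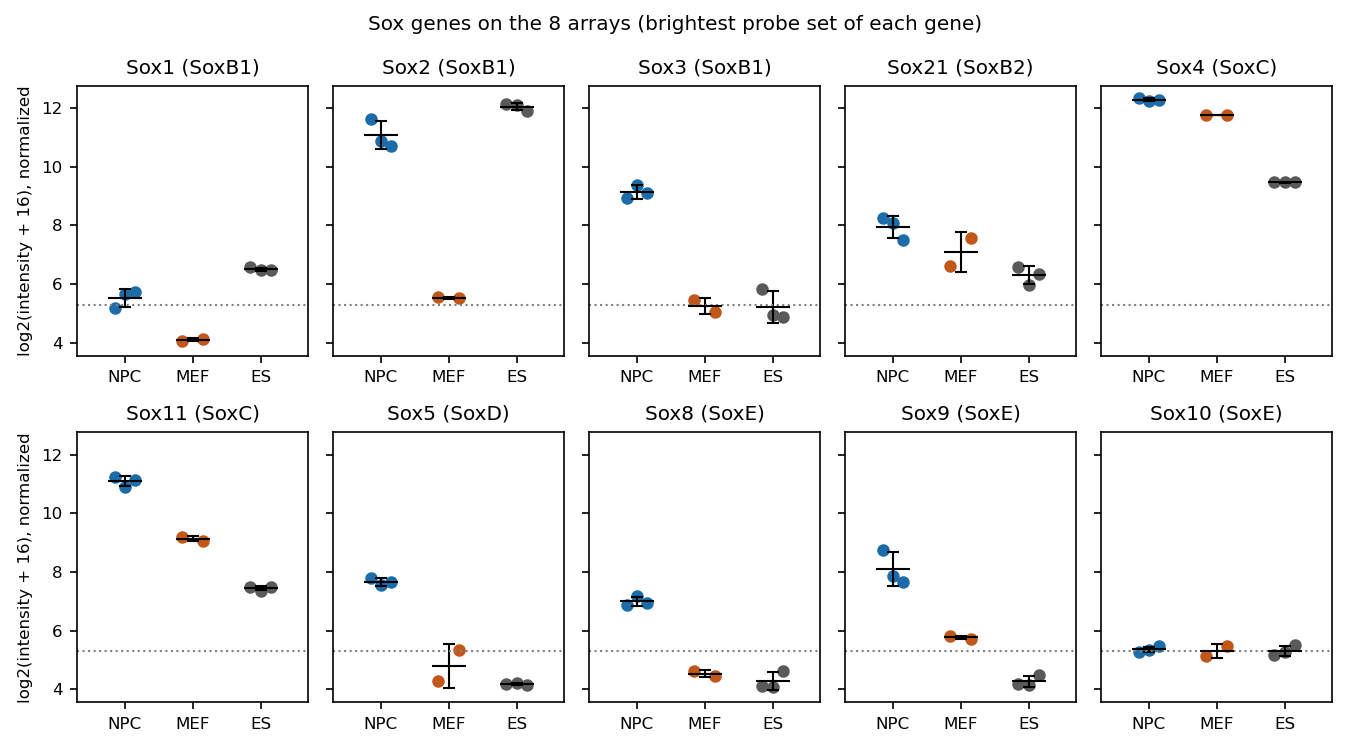
Normalized log2(intensity + 16) of the brightest probe set of each of the 10 Sox genes, with one point per array, a line at each group mean, whiskers of 1 SD and a dotted line at the array median, for NPC (3 arrays), MEF (2 arrays) and ES cells (3 arrays). Sox2 is lowest in MEF, the NPC points of Sox3, Sox4, Sox11, Sox5, Sox8 and Sox9 lie above all ES points, and the 3 groups of Sox10 overlap near 5.3.

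Among the SoxB1 genes, Sox2 covered the widest range of the 10 members. Its single probe set read 11.61, 10.87 and 10.72 on the NPC arrays, 5.56 and 5.51 on the MEF arrays and 12.14, 12.09 and 11.91 on the ES arrays. NPC and ES cells were both far above MEF, and the NPC arrays all lay below the ES arrays. Sox2 was 46.3-fold higher in NPC than in MEF (log2 difference 5.53, SE 0.23, limma adjusted p = 2.09e-07) and 91.2-fold lower in MEF than in ES cells (log2 difference -6.51, SE 0.23, limma adjusted p = 7.84e-08). The MEF arrays lay close to the array median, and these sizes moved with the pseudocount. MEF minus ES was -7.08 at a pseudocount of 1 and -5.50 at 64, and NPC minus MEF 6.09 and 4.54. The span of the 3 group means of Sox2, 6.51 log2 units, was at the 99.6th percentile of all genes. NPC lay 1.97-fold below ES cells (-0.98, SE 0.20, 95% interval -1.44 to -0.52, limma adjusted p = 0.00303), just inside the minimum of 1. This difference was called lower without NPC 1 (-1.25), without ES 3 (-1.04), with arrays weighted by their quality (-1.24), and at the deposited scaling (-1.13), median centring (-1.11) and trimmed mean scaling (-1.04).

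Sox2 lies on chr3:34649995-34652461, and its promoter is shown because it is the member with the widest range between these cells. The 300 bases run from 250 before to 50 after the annotated start (RefSeq, GRCm38.p6, chr3:34649745-34650044, plus strand), and in this and the later promoters capitals mark the CCAAT box on either strand (CCAAT or ATTGG) and the SOX motifs ACAATG and ACAAAG, also searched on both strands.
Sox2 promoter: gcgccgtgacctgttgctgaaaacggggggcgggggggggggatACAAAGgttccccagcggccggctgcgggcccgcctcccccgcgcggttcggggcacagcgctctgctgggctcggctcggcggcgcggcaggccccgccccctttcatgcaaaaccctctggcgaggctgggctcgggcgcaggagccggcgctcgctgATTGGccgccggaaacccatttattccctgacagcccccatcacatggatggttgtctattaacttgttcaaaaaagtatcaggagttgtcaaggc
The window held 1 CCAAT box, read as ATTGG from base 46 before the start, and 1 ACAAAG from base 206 before it. Of 32851 RefSeq promoter windows of the same length, 37.4% held a CCAAT box and 18.7% an ACAAAG. It also held ATGCAAA, found in 4.63% of the windows and part of the octamer ATGCAAAT that POU factors bind, but not the full octamer. The Sox1 window, not printed here, held the full octamer, found in 1.74% of the windows. A match of letters is a description and not evidence of binding.

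Sox1, an early marker of neural commitment in the embryo, read lower on every NPC array than on any ES array. Its brighter probe set read 5.20, 5.66 and 5.74 in NPC, 4.07 and 4.14 in MEF and 6.57, 6.48 and 6.47 in ES cells. The 3 groups did not overlap, MEF was dim, and the NPC arrays lay near the array median. Sox1 was lower in MEF than in ES cells by 5.29-fold (log2 difference -2.40, SE 0.20, limma adjusted p = 1.11e-05), and with MEF dim this difference ran from -5.14 at a pseudocount of 1 to -1.10 at 64. NPC stood 0.97 log2 units below ES cells (-0.97, SE 0.18, 95% interval -1.38 to -0.57, limma adjusted p = 0.00159), again just under the minimum, and the difference was called without NPC 2 (-1.05), without NPC 3 (-1.08), without ES 3 (-1.02) and with a pseudocount of 1 (-1.29). Sox1 was called higher in NPC than in MEF (1.43, SE 0.20, limma adjusted p = 0.000427), and this call ended when its probe sets were averaged (0.77) and at a pseudocount of 64 (0.54). The other probe set, 1422205_at, was dim in all groups.

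Sox3, the X-linked SoxB1 gene (chrX:60891366-60893430), was the SoxB1 member that rose in NPC. It read 8.93, 9.38 and 9.09 in NPC, 5.46 and 5.05 in MEF and 5.83, 4.96 and 4.87 in ES cells. Every NPC array was at least 3 log2 units above every MEF and ES array, whose ranges overlapped. Sox3 was 15.1-fold higher in NPC than in ES cells (log2 difference 3.92, SE 0.27, limma adjusted p = 2.76e-06) and 14.7-fold higher in NPC than in MEF (3.88, SE 0.30, limma adjusted p = 9.74e-06). Between MEF and ES cells the difference was 0.04 (95% interval -0.64 to 0.71). The dimmer probe set 1450485_at was also called higher in NPC, by 1.77 against ES cells and 1.35 against MEF. Within SoxB1, then, Sox1 and Sox2 had their highest mean in ES cells and Sox3 its highest mean in NPC.

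Sox21, the SoxB2 repressor (chr14:118233233-118237030), rose in NPC, and its probe sets disagreed in MEF. The brighter one, 1437059_at, read 8.25, 8.07 and 7.51 in NPC, 6.62 and 7.58 in MEF and 6.60, 5.98 and 6.33 in ES cells. The other, 1451835_at, read 8.10, 7.26 and 7.23 in NPC, 4.55 and 4.10 in MEF and 5.35, 5.93 and 6.15 in ES cells. On both, all NPC arrays were above all ES arrays, by 3.12-fold on the brighter probe set (log2 difference 1.64, SE 0.29, limma adjusted p = 0.00117) and by 3.29-fold on the other (1.72). MEF lay 0.80 above ES cells on the first (95% interval 0.07 to 1.53, limma adjusted p = 0.0711, not called) and 1.49 below them on the second (-1.49, SE 0.32, limma adjusted p = 0.00496, called lower). NPC minus MEF was 0.84 (not called, with overlapping arrays) on the first and 3.21 (called higher) on the second. The level of Sox21 in MEF is therefore uncertain. The brighter probe set was called higher in MEF than in ES cells without MEF 1 (1.25), at median centring (1.20) and at the deposited scaling (1.52), while the mean of the probe sets gave -0.34. For NPC against MEF it was called higher without NPC 3 (1.06), without MEF 2 (1.30) and with the mean of the probe sets (2.02).

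The SoxC genes Sox4 and Sox11 were higher in both NPC and MEF than in ES cells. Sox4 (chr13:28948919-28953699) read 12.33, 12.23 and 12.27 in NPC, 11.77 and 11.76 in MEF and 9.50, 9.47 and 9.47 in ES cells. The arrays of each group lay close together, and the 3 groups did not overlap. Sox4 was 6.98-fold higher in NPC than in ES cells (log2 difference 2.80, SE 0.06, limma adjusted p = 4.75e-09) and 4.89-fold higher in MEF than in ES cells (2.29, SE 0.07, limma adjusted p = 3.02e-08). NPC exceeded MEF by 0.51 (95% interval 0.36 to 0.66, limma adjusted p = 0.000267), under the minimum for a call, and without renormalization of the deposited values it was -0.31, beside a median of -0.43 over all genes. Of its 8 probe sets, 6 were called higher in NPC than in ES cells (1.21 to 3.15) and in MEF than in ES cells (1.04 to 3.30), and the other two were dim in all groups. None of the 8 was called between NPC and MEF, where the differences ran from -0.15 to 0.55.

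Sox11 (chr12:27334268-27342718) separated all 3 cell types. It read 11.25, 10.90 and 11.13 in NPC, 9.19 and 9.06 in MEF and 7.48, 7.36 and 7.50 in ES cells, in 3 ranges that did not overlap. Sox11 was 12.5-fold higher in NPC than in ES cells (log2 difference 3.64, SE 0.10, limma adjusted p = 1.68e-08) and 3.20-fold higher in MEF than in ES cells (1.68, SE 0.12, limma adjusted p = 3.56e-06). It was 3.91-fold higher in NPC than in MEF (1.97, SE 0.12, limma adjusted p = 1.94e-06). All 6 probe sets were called higher in NPC than in ES cells (1.69 to 3.64) and in NPC than in MEF (1.04 to 1.97), and 3 of the 6 in MEF than in ES cells (0.43 to 1.68 over all 6). So the 2 SoxC genes shared their order of group means and differed in the gap between NPC and MEF. At the deposited scaling the NPC minus MEF difference of Sox11 was 1.04 and its MEF minus ES difference 2.52.

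The promoters of the SoxC genes are shown because both genes were higher in NPC and in MEF than in ES cells. Each is in the direction of transcription, on the minus strand of chr13:28953650-28953949 for Sox4 and of chr12:27342669-27342968 for Sox11 (RefSeq, GRCm38.p6), with capitals as before.
Sox4 promoter: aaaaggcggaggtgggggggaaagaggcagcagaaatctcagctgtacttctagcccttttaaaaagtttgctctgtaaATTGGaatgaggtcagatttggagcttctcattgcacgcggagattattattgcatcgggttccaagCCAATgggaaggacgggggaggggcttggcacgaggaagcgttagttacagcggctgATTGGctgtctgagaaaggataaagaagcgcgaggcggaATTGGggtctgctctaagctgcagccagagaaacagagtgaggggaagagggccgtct
Sox11 promoter: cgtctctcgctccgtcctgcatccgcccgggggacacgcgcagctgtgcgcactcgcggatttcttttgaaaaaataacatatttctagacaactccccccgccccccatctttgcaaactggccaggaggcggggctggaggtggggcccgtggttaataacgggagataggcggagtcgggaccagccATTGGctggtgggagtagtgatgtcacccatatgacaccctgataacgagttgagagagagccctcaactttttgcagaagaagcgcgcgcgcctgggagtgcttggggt
The Sox4 window held 4 CCAAT boxes, starting 171, 104, 47 and 8 bases before the start, and the Sox11 window held 1, starting 60 bases before it. Neither window held ACAATG, which 12.6% of all windows held, or ACAAAG. The ratio of observed to expected CpG was 0.679 for Sox4 and 0.817 for Sox11, against a median of 0.384 over all windows.

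Sox5, the SoxD member (chr6:143828425-144782287), was higher in NPC than in both other cell types. Its brightest read 7.80, 7.55 and 7.65 in NPC, 4.28 and 5.34 in MEF and 4.17, 4.20 and 4.13 in ES cells. NPC stood clear of both other cell types, ES cells were dim, and the MEF arrays differed by more than 1 log2 unit, MEF 2 being the higher. Sox5 was 11.3-fold higher in NPC than in ES cells (log2 difference 3.50, SE 0.25, limma adjusted p = 4.07e-06) and 7.24-fold higher in NPC than in MEF (2.86, SE 0.28, limma adjusted p = 4.86e-05). MEF minus ES was 0.64 (limma adjusted p = 0.097), and was called without MEF 1 (1.15) and with a pseudocount of 1 (1.84). Of 7 probe sets, 4 were called higher in NPC in both comparisons (2.01 to 3.50 against ES cells, 1.89 to 2.86 against MEF), 0 were called between MEF and ES cells, and 3 were dim in all groups. The mean of the 7 probe sets gave a NPC minus ES difference of 1.76.

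The promoter of Sox5 is shown as the contrast with SoxC. The gene spans 953863 bases, against 2065 to 9578 for the other members, and the window (chr6:143947057-143947356, minus strand, RefSeq, GRCm38.p6) belongs to a start inside that span. Which start these cells used was not measured.
Sox5 promoter: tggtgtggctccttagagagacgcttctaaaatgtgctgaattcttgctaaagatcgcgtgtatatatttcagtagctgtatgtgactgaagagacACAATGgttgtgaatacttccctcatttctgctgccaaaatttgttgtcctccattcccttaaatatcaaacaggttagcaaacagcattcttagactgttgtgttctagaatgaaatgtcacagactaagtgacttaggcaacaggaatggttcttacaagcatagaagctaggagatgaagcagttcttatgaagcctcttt
It held 1 ACAATG, starting 154 bases before the start, and no CCAAT box. Its ratio of observed to expected CpG was 0.256, below the median of all windows, while the other 6 members with a promoter in the table (Sox1, Sox2, Sox21, Sox4, Sox11 and Sox8) were above it at 0.647 to 1.07. Sox6, the SoxD gene outside the 10 members that acts beside Sox5 in cartilage, read 8.76, 8.79 and 8.52 in NPC, 5.20 and 5.23 in MEF and 4.24, 4.68 and 4.88 in ES cells, and was higher in NPC than in ES cells by 4.09 log2 units (SE 0.19, limma adjusted p = 2.62e-07).

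**Figure D2:**
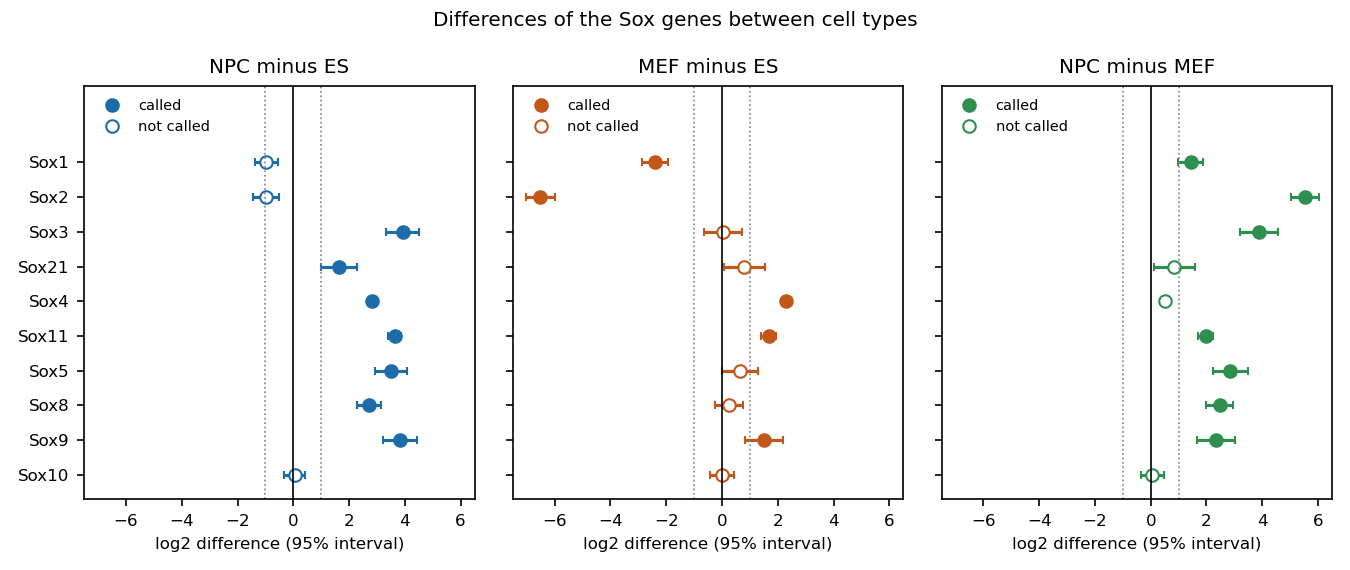
Log2 difference of each Sox gene for NPC minus ES, MEF minus ES and NPC minus MEF, with its 95% interval filled points for called differences and dotted lines at the minimum of 1 in either direction. Sox2 is at -6.51 for MEF minus ES, Sox3, Sox9, Sox11 and Sox5 lie between 3.50 and 3.92 for NPC minus ES, in an order that changes with the pseudocount, and Sox10 lies within 0.06 of 0 in all 3 comparisons.

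The SoxE genes differed among themselves: Sox8 and Sox9 were higher in NPC than in both other cell types and Sox10 was not. Sox9 (chr11:112782210-112787757), which acts in the switch of neural precursors to gliogenesis, read 8.76, 7.88 and 7.67 in NPC, 5.81 and 5.73 in MEF and 4.19, 4.15 and 4.47 in ES cells. The ranges did not overlap, with MEF between NPC and ES cells and NPC 1 the highest array. Sox9 was 14.2-fold higher in NPC than in ES cells (log2 difference 3.83, SE 0.27, limma adjusted p = 3.36e-06), and without NPC 1 the difference was 3.52. It was 2.82-fold higher in MEF than in ES cells (1.496, SE 0.30, limma adjusted p = 0.00269) and 5.04-fold higher in NPC than in MEF (2.33, SE 0.30, limma adjusted p = 0.000252). The call in MEF ended with a pseudocount of 64 (0.61, limma adjusted p = 0.0631). A further probe set, 1424950_at, was called higher in all 3 comparisons (2.92, 1.44 and 1.47), and the third, 1433889_at, was dim in all groups.

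Sox8 (chr17:25565893-25570686), which overlaps in function with the other SoxE genes in glia, read 6.88, 7.18 and 6.93 in NPC, 4.62 and 4.44 in MEF and 4.11, 4.10 and 4.64 in ES cells. It was dim in MEF and in ES cells, whose arrays overlapped. Sox8 was 6.56-fold higher in NPC than in ES cells (log2 difference 2.71, SE 0.19, limma adjusted p = 3.78e-06) and 5.53-fold higher in NPC than in MEF (2.47, SE 0.22, limma adjusted p = 2.34e-05). With MEF and ES cells dim, NPC minus MEF was 3.82 at a pseudocount of 1 and 1.31 at 64, and NPC minus ES 4.95 and 1.39. MEF minus ES was 0.25 (95% interval -0.24 to 0.74).

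Sox10 (chr15:79154913-79164490), required for the neural crest and for oligodendrocyte maturation, read 5.29, 5.34 and 5.47 in NPC, 5.13 and 5.48 in MEF and 5.17, 5.28 and 5.49 in ES cells. All groups overlapped near the array median. The differences were 0.05 for NPC minus ES (95% interval -0.33 to 0.43), -0.01 for MEF minus ES (-0.43 to 0.41) and 0.06 for NPC minus MEF (-0.37 to 0.48), and none of its 3 probe sets was called in any comparison. The span of its group means was 0.06 log2 units, at the 1.78th percentile of all genes, whereas the other 9 members lay between the 80.4th and 99.6th percentiles.

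**Figure D3:**
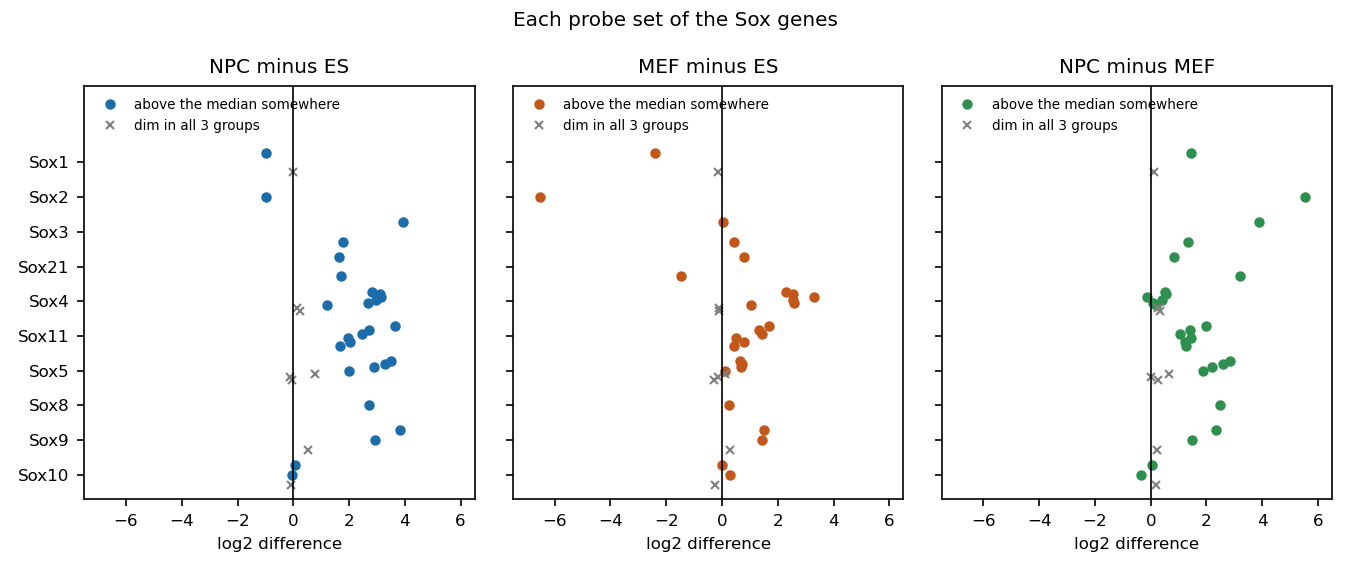
Log2 differences of all 35 probe sets of the 10 Sox genes in the 3 comparisons, with one mark per probe set, a cross where it was dim in all 3 groups. The 6 probe sets of Sox11 all lie above 1 for NPC minus ES and NPC minus MEF, and the 2 of Sox21 fall on opposite sides of 0 for MEF minus ES (0.80 and -1.49).

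Over the 35 probe sets, 23 were called higher and 0 lower in NPC than in ES cells (8.99% and 8.86% of all probe sets), 11 higher and 3 lower in MEF than in ES cells (9.82% and 9.54%), and 18 higher and 0 lower in NPC than in MEF (8.10% each). Counting genes whose arrays did not overlap, 7 members were higher and 2 lower in NPC than in ES cells (23.4% and 29.4% of all genes). The same count was 5 higher and 2 lower for MEF against ES cells (31.2% and 36.6%) and 8 higher and 0 lower for NPC against MEF (29.7% and 28.3%). Probe sets of a gene share their transcripts and are not independent.

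Patterns were compared by the root mean square (RMS) difference over the 8 arrays, after each gene had been centred on the mean of its group means. The nearest genes were taken for the 8 members whose group means spanned at least 2 log2 units. For Sox1 these were Sap30, Podxl and Gins1, at 0.0893 to 0.111 log2 units, and for Sox2 Mid1, Gldc and Bex4, at 0.612 to 0.731. Sox3 was nearest to Dtna, Adgrg1 and Kcnmb4 (0.272 to 0.412), Sox4 to Ebf1, Matn2 and Ptges3l (0.144 to 0.166), and Sox11 to Rasa3, Stox2 and Hoxa5 (0.118 to 0.187). Sox5 was nearest to Tcf4, Klf12 and Gria2 (0.239 to 0.339), Sox8 to Tnfrsf21, Btbd17 and Cttnbp2 (0.153 to 0.192), and Sox9 to Tmtc2, Itgb8 and Fam120c (0.186 to 0.218). Sox2 had the most distant neighbours of the 8, but the distances were not scaled and Sox2 also had the widest span of group means. Among the members themselves, Sox11 and Sox9 were closest (RMS 0.289 over the 8 arrays), followed by Sox5 and Sox8 (0.510) and Sox5 and Sox9 (0.511), and the SoxC pair Sox4 and Sox11 stood at 0.588. These distances describe 8 arrays in 3 groups and carry no test.

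The counts of the lists below, and of the marker lists above, stand beside these shares of all genes. Against ES cells, 10.0% were called higher and 12.9% lower in NPC, and 12.2% and 12.8% in MEF. For NPC against MEF, 7.95% were called higher and 10.5% lower. Of the factors with which Sox proteins share sites, 13 were measured, and in NPC the call was higher for 5 and lower for 5 than in ES cells. The neural POU factors Pou3f3 (log2 difference 5.29) and Pou3f1 (2.33) and the bHLH factor Olig2 (3.63) rose most, and the pluripotency factors Nanog (-7.49), Pou5f1 (-7.36) and Sall4 (-6.90) fell most. In MEF 9 were called lower and 0 higher. Pou3f1 averaged 9.97 in NPC, 4.53 in MEF and 7.64 in ES cells, so it was above the array median in ES cells too. The genes known as SOX2 targets in ES cells shared Pou5f1, Nanog, Zfp42 and Tdgf1, among others, with the ES markers above. They also shared Pou5f1, Nanog and Sall4 with the partner factors, so their count partly repeats both. Of these targets, 11 of 11 were lower in NPC (median -6.90, beside -0.05 over all genes) and in MEF (median -6.66, beside -0.04). Tdgf1, a Nodal co-receptor, was at -8.61 in NPC. In NPC, where Sox2 stood 0.98 log2 units below ES cells, 9 of these 11 genes were dim.

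Of 14 genes linked to SoxB factors in neural precursors, 11 were higher and 1 lower in NPC than in ES cells (median 2.59). Nes, Fabp7 and Pax6, among others, were also on the list of neural precursor markers above. Fabp7, a radial glial fatty acid binding protein, rose by 8.60, Ncan, a matrix proteoglycan of brain, by 5.12 and Nes by 3.99, and the hedgehog effector Gli2 fell by 2.76 on the log2 scale. In MEF the calls were 7 higher and 3 lower (median 0.84). The largest rises there were Cdh2, N-cadherin (4.46), Vim, vimentin (3.61), and Nes (2.96). Pax6, a transcription factor of neural precursors, fell (-1.80), as did Ncan (-1.59) and Gli2 (-1.14). NPC exceeded MEF at 9 of the 14, with Ncan at 6.71 and Pax6 at 2.83, and was lower at 1, Gli2 (-1.62).

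Genes linked to SoxC factors in neurons were mixed in NPC, where of 11 measured 3 were called higher and 2 lower than in ES cells (median 0.46). Map2, a microtubule-associated protein of dendrites, rose by 5.22, the growth cone protein gene Gap43 by 3.92 and Dcx, doublecortin, by 1.56, while Stmn2, a microtubule regulator, fell (-7.04) and Elavl3, a neuronal RNA-binding protein, fell (-2.64). The call of Dcx held without NPC 1 and ended with any other array left out (limma adjusted p 0.0587 to 0.126). In MEF 2 were higher, Gap43 (2.01) and Map2 (1.92), and 2 lower, Elavl3 (-2.58) and Stmn2 (-2.53). Of the 8 neuron markers, which overlap with this list, 2 were higher in NPC than in ES cells, Syt1 (3.16) and Dcx. The 3 lower were Stmn2, Nefl (-3.26) and Elavl3. The summed intensity of the 8 was 215 to 662 over the NPC arrays, 659 to 713 in MEF and 3319 to 3399 in ES cells. Such a sum is weighted toward the brightest genes, and Stmn2 had the largest difference of the 8 between NPC and ES cells. The part of these markers in the SoxC levels was not tested.

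Of 25 measured genes tied to SoxE factors in glia and neural crest, 10 were higher and 4 lower in NPC than in ES cells (median 0.01). The largest rises were those of Fabp7, Nfia, a factor of gliogenesis (7.04), and Slc1a3, an astroglial glutamate transporter (4.08). The largest falls were Myrf, a regulator of myelin genes (-3.65), Erbb3, a neuregulin receptor (-2.82), and Mbp, myelin basic protein (-1.92). MEF differed from ES cells upward at 6 and downward at 4, beside 12.2% and 12.8% of all genes (median -0.10, against -0.04 over all genes). Egr2 (4.22) and Cspg4 (2.96) were among the higher and Olig1 (-5.20) among the lower. Beside Sox10, oligodendrocyte markers were mixed in NPC, with 1 of 7 higher (Cnp, 1.70) and 2 lower than in ES cells, and Mbp, Mog, Mag, Cldn11 and Myrf were dim there. Of 7 neural crest, Schwann cell and melanocyte markers, 0 were higher and 4 lower in NPC, and their summed intensity was 142 to 200 in NPC, 263 to 272 in MEF and 512 to 650 in ES cells. Of 7 astrocyte markers, 3 were higher (Aldoc, S100b and Slc1a2) and 1 lower (Gja1) in NPC than in ES cells, and Gfap was dim in NPC.

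Of the cartilage genes that SOX9 and the SoxD proteins activate, 7 of 14 were lower and 0 higher in NPC than in MEF (median -0.86), while Sox5, Sox6 and Sox9 themselves were called higher in NPC. Among the 14, 5 were higher and 1 lower in MEF than in ES cells (median 0.50), led by the collagen genes Col11a1 (4.30), Col2a1 (2.601) and Col9a1 (2.01). NPC had 2 higher, Col11a1 (1.61) and Col9a1 (1.49), and 4 lower than ES cells (median -0.20). At a pseudocount of 64 both of these counts were 0, and the genes lower in NPC than in MEF numbered 2. The largest difference between NPC and MEF was that of Col2a1 (-3.61). Of 8 chondrocyte markers, which share genes with this list, 3 were higher in MEF than in ES cells and 5 were not called. In NPC, where Sox9 was highest, 1 marker was higher and 2 were lower than in ES cells, and both counts were 0 at a pseudocount of 64. Col2a1, 1 of the 2 lower (-1.01), lost its call without NPC 1, NPC 3, MEF 1, MEF 2 or ES 1. Against MEF, 0 markers were higher and 4 were lower in NPC, and 7 of the 8 were dim in NPC. Their summed intensity was 59.6 to 169 in NPC, 522 to 526 in MEF and 134 to 154 in ES cells, Matn1, Col11a2 and Hapln1 were dim in MEF, and their part in the Sox9 level was not tested.

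Genes that act upstream of Sox factors or on their activity were mixed. Of 16 measured, the calls in NPC against ES cells were 2 higher and 4 lower, beside 10.0% and 12.9% of all genes, with the inhibitor of differentiation Id3 at 3.69 and the receptor gene Fgfr1 at 1.55, and the ligand gene Bmp4 (-3.01), the Notch effector Rbpj (-2.30) and the hedgehog target Gli1 (-2.21) lowest. In MEF, 5 were higher (8 at the deposited scaling, 2 without probe sets of shared sequence), led by Id3 (4.62) and Id1 (2.10), and 4 lower, led by the hedgehog receptor Ptch1 (-2.27) and Gmnn, geminin (-2.19). Among the 10 further Sox genes on the array, 1, Sox6, was higher in NPC than in ES cells (10.0% of all genes were). Another 4 were lower in NPC (12.9% of all genes were). Sox15, which can stand in for SOX2 at some sites in mouse ES cells, was at -2.79, Sox7 at -1.76 and Sox13 at -1.58. In MEF the count was 0 higher and 4 lower, Sox15 again lowest (-2.92).

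**Figure D4:**
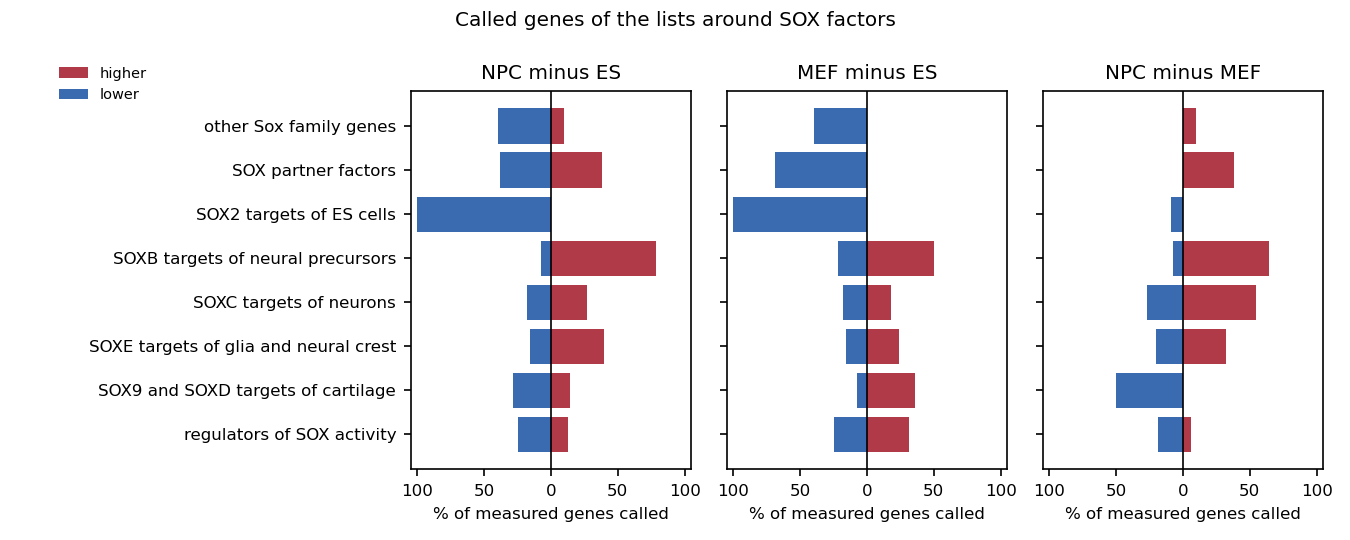
Percent of the measured genes of each list that were called higher (red, right of 0) and lower (blue, left of 0), for NPC minus ES, MEF minus ES and NPC minus MEF. All 11 SOX2 targets of ES cells are lower in NPC and in MEF, and 11 of 14 SoxB genes of neural precursors are higher in NPC than in ES cells.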

How the data were processed

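RNA from 8 samples of 3 cell types had been hybridised to Affymetrix whole-genome mouse arrays. The deposited values are linear probe set intensity from GCOS 1.4, per the submitters' processing notes; the algorithm and scaling settings are not given in the sources used here. After 64 control probe sets were left out, values were transformed to log2(intensity + 16), from the deposited intensity, and quantile normalized, because 2% trimmed means of the arrays differed 2.10-fold. Each gene was read from its brightest single-gene probe set. A single limma model (version 3.58.1, R 4.3.3) of all 8 arrays, with a variance trend and Benjamini-Hochberg adjustment over all genes, gave the comparisons. In simulated data with normal noise, 100 of 18193 genes were changed by 1.5 log2 units and 100 by 3. Differences of 1.5 were recovered for 89% of genes in NPC minus ES, 85% in MEF minus ES and 78% in NPC minus MEF. Many more genes were called in the data, such as 1828 higher in NPC than in ES cells, so these shares are not the recovery there. The members, the 18 gene lists and the tests were chosen with earlier results of these data known. The rule for named genes took, per list, comparison and direction, up to 3 called genes of the largest difference. Promoters are RefSeq sequence, found for 7 of the 10 members. Alternatives covered scaling, pseudocount, low values, probe sets, model, thresholds and each array left out.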

Additional observations from a re-analysis of the deposited data

How the results depend on the processing

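The 30 member differences were recomputed under 22 settings (657 values); no called difference reversed, 3 lost their call, 20 gained one, and 22 values that were not called turned sign; the cause was not tested. The count of members lower in NPC than in ES cells, 0, became 1 under median centring, deposited scaling, trimmed mean scaling, a pseudocount of 1 and array weights, and 2 with a minimum of 1.5-fold, and ran from 0 to 2 with an array left out. Members higher in MEF than in ES cells ran from 3 to 5 with an array left out, 5 without MEF 1. All-gene counts of both comparisons with MEF moved at the deposited scaling: 4344 genes were higher in MEF than in ES cells, against 2227 after normalization, and 1128 lower, against 2327. Between NPC and MEF, 633 were higher, against 1447, and 4468 lower, against 1912, as the median of all genes shifted to 0.32 for MEF minus ES and -0.43 for NPC minus MEF. A pseudocount of 64 gave 1221 higher and 1417 lower in NPC than in ES cells, 1471 higher and 1477 lower in MEF than in ES cells, and 895 higher and 1215 lower in NPC than in MEF. A minimum of 1.5-fold gave 2968 higher and 3788 lower in NPC than in ES cells, against 1828 and 2345, 3842 lower in MEF than in ES cells, and 2773 higher and 2984 lower in NPC than in MEF. At the deposited scaling the SoxB genes of neural precursors higher in NPC than in MEF numbered 5, against 9, the SoxC genes higher in MEF than in ES cells 4, against 2, and the further Sox genes lower in MEF than in ES cells 2, against 4. At a pseudocount of 64 the list counts in dim genes fell: cartilage genes lower in NPC than in MEF to 2, against 7, fibroblast genes lower in NPC than in ES cells to 0, against 4, further Sox genes lower in NPC than in ES cells to 1, against 4, and SoxB genes higher in MEF than in ES cells to 4, against 7. The list and all-gene recounts were added after seeing the data. Deviations of same-numbered arrays from their group means correlated near 0 (r from -0.0199 to 0.0228). With 2 or 3 arrays per group, this cannot tell whether the numbers pair samples. With the replicate number as a block, the members higher and lower stayed at 7 and 0, 3 and 2, and 7 and 0. Differences from dim groups moved with the pseudocount: Sox5 in NPC minus ES was 5.995 at a pseudocount of 1 and 1.94 at 64, and Sox9 in MEF minus ES 3.30 and 0.61. Sox3 in NPC minus ES was 4.69 at a pseudocount of 1 and 2.83 at 64. In NPC minus MEF, Sox5 was 4.16 and Sox3 4.58 at a pseudocount of 1. Signal near the array floor limits the folds of Sox3, Sox5, Sox8 and Sox9 against ES cells. It also limits those of Sox1, Sox2, Sox3, Sox5 and Sox8 against MEF, and all differences of Sox10.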

Other observations

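The noncoding transcript Sox2ot, whose gene overlaps Sox2, was lower in MEF than in NPC, as Sox2 was, and differed from Sox2 in the order of NPC and ES cells. It read 5.61, 5.68 and 5.63 in NPC, 4.09 and 4.27 in MEF and 4.36, 4.62 and 4.49 in ES cells, in normalized log2 intensity. Sox2ot was higher in NPC than in ES cells by 1.15 log2 units (SE 0.14, limma adjusted p = 1e-04) and higher in NPC than in MEF by 1.46 (limma adjusted p = 6.91e-05), whereas Sox2 was lower in NPC than in ES cells by 0.98. For MEF minus ES, Sox2ot was not called (-0.31, 95% interval -0.66 to 0.04, limma adjusted p = 0.134), while Sox2 was at -6.51. Sox2ot was dim in MEF and in ES cells, and the gene was singled out after its values were seen.

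The NPC arrays differed among themselves at genes linked to Sox factors, chosen after their values were seen. NPC 1 was higher than NPC 2 and NPC 3 at Sox9 (8.76 against 7.88 and 7.67), at the endothelin receptor gene Ednrb (7.87 against 4.70 and 4.59), at Gap43 (10.05 against 8.41 and 8.54) and at Pou3f4 (7.24 against 4.82 and 5.17). It was lower at Dcx (4.46 against 6.58 and 6.79), at Nkx2-2, a factor of ventral neural precursors (6.56 against 8.71 and 8.89), and at Pou3f1 (8.68 against 10.74 and 10.49). Sox4, Sox8 and Sox3 spread by less than 0.5 log2 units over the same 3 arrays.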
